A study of Macaca mulatta with 24 samples.

Results

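The genes described here drive cell division. They were taken from 60 listed symbols of DNA replication, mitosis and the passage from G1 into S phase, matched to the gene names in the array files. Of these, 31 were found by name, and 26 of the 31 could be tested, because 3 or more of the 4 arrays of some group showed them well above background, out of 12229 features tested in all. The 26 comprised 6 replication genes (MCM3, MCM5, MCM7, PCNA, RFC3 and RFC5), 13 mitotic genes (BUB3, CCNA2, CCNB1, CDC20, CDC25C, CENPF, KIF23, KIF2C, NEK2, PLK1, PTTG1, TOP2A and TPX2), 6 regulators of G1 and S phase (CCND1, CCNE1, CDC25A, CDK2, CDK4 and E2F1) and the replication factor GINS2. The endometrium, the lining of the uterus, was sampled from fertile female rhesus monkeys (Macaca mulatta) at 2, 4 or 6 days past ovulation. One set of cycles was mated with conception proven, and the other set was non-mated with normal ovulation. Each of the 6 groups had 4 one-colour arrays. Days are counted from ovulation, as the descriptions of all samples do, while titles and source names of the conception samples count theirs from fertilization. The labels name no drug, hormone treatment, strain or age. Because the labels do not tie arrays to animals, every p-value below measures the spread between arrays, which may be technical.

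A dividing cell copies its DNA in S phase and separates the copies in mitosis. The MCM proteins form the ring-shaped helicase that opens the DNA, the RFC complex loads the PCNA clamp that holds the polymerases, and cyclins E and A with CDK2 drive S phase under the control of E2F factors. Cyclin B with CDK1 starts mitosis, after which spindle motors, kinetochore proteins and the CDC20-activated ubiquitin ligase separate the chromosomes. In the primate endometrium the epithelial glands divide under estrogen before ovulation, and division in the upper glands ceases under progesterone after it.

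Each gene was read by a 60-base probe, and the starts of the probes on which the results turn are given here so that the measured transcripts can be identified. The first 30 bases are shown, 5′ to 3′ as the array files list them, in lower case throughout because no part is singled out.
TOP2A: gacctgtctacattgttacatgtgtgtgac
NEK2: atttggatgcactttggtcattaataccat
CCNB1: tccataggacatactacatgtaagccaagt
MCM3: gcaccagttaaggcgaatatatattgtacc
MCM7: gaggagcccctctttctcctatgctgcact
PCNA: gtccaaagtcagatctggtctagttaacct
PTTG1, probe used: agatgggatatctcaagtttaacaccacgt
PTTG1, other probe: gctgtgacatagatatttaaatttcttagt
The array files place these probes on the rheMac2 build. The TOP2A probe lies at chr16:50505115-50505174 on the minus strand, the NEK2 probe at chr1:158742343-158742402 on the plus strand and the CCNB1 probe at chr6:67036370-67036429 on the plus strand. The MCM3 probe lies at chr4:51928573-51928632, the MCM7 probe at chr3:47371951-47372010 and the PCNA probe at chr10:38452981-38453040, each on the minus strand. The files give no exon or UTR for them. The probe named PTTG1 lies at chr5:32943516-32943575, whereas a probe that only its description ties to PTTG1 lies at chr6:156814148-156814207. For 49 symbols with a probe the chromosome could be set against RefSeq's annotation of a later assembly, T2T-MMU8v2.0, and it differed for 4 of them, PLK1, PTTG1, MCM2 and MCM6, so these probes may read a near-identical copy. The probes of replication and mitotic genes had similar base composition, with a median GC content of 35% among the 6 replication genes and 36.7% among the 13 mitotic genes.

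A level is the log2 signal of a gene after subtraction of the array's 75th percentile of log2 signals. It can be compared between arrays for a given gene, but not between genes. On 21 arrays 53.3% to 71.5% of all probes were well above background. The remaining 3 arrays, non-mated day 2 replicate 3, non-mated day 4 replicate 1 and non-mated day 4 replicate 2, had 4.33%, 37.9% and 21.8%, and are called weak, the other 21 sound. Of the 26 genes, 1, 19 and 6 were well above background on these arrays, against 21 to 26 on each of the other arrays. On the first of them 15 of the 26 genes sat at the lowest level of the array, -0.26, which is above the level of many of the genes on sound arrays. Values without the weak arrays are therefore given as well for many of the genes named in the comparisons that contain them. Of the uterine markers, HOXA10, HOXA11 and PAEP were measured, as were the stromal markers VIM, COL3A1, COL6A3, DCN, LUM and PDGFRA, but only 2 of 9 epithelial markers, PAX8 and CLDN3, were on the array by name.

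**Figure D1:**
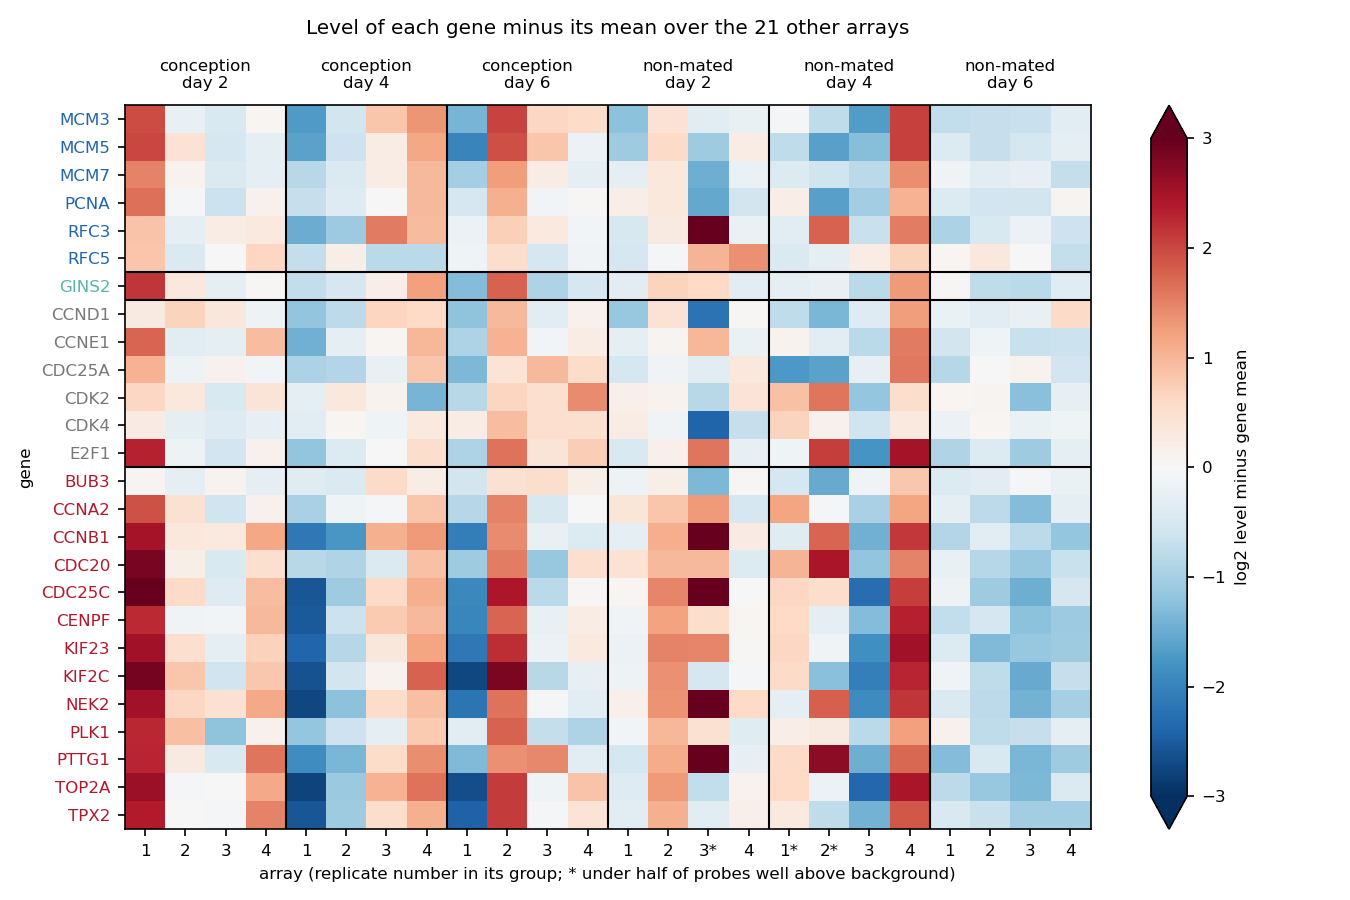
Level of each of the 26 genes (rows) on each of the 24 arrays (columns), as the log2 level minus the gene's mean over the 21 arrays that were not weak. Blue labels are replication genes, green is GINS2, grey labels are regulators of G1 and S phase, and red labels are mitotic genes. Conception day 2 replicate 1, conception day 6 replicate 2 and non-mated day 4 replicate 4 are red in nearly every row, conception day 4 replicate 1, conception day 6 replicate 1 and non-mated day 4 replicate 3 are mostly blue, and the non-mated day 6 arrays look alike.

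Arrays of the same group often lay further apart in these genes than the group means did. Averaged over the 13 mitotic genes, conception day 6 had levels of -2.78, 0.70, -1.29 and -1.05 on its 4 arrays, an 11.2-fold range. Conception day 4 had -3.03, -1.98, -0.67 and 0.00, and conception day 2 had 1.23, -0.75, -1.32 and -0.27. The ranges of the 3 conception days overlapped. Among non-mated arrays the mitotic mean was -1.16, 0.03 and -1.10 on the day 2 arrays that were not weak, and -2.54 and 0.79 on the corresponding day 4 arrays. At non-mated day 6 it was -1.54, -1.83, -2.19 and -1.80, a 1.56-fold range. The replication genes followed the same arrays over a smaller range, from -0.24 to 1.52 on day 2 of conception cycles, -1.11 to 0.83 on day 4 and -0.81 to 1.31 on day 6. At non-mated day 6 all 4 arrays had a replication mean between -0.37 and -0.31.

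**Figure D2:**
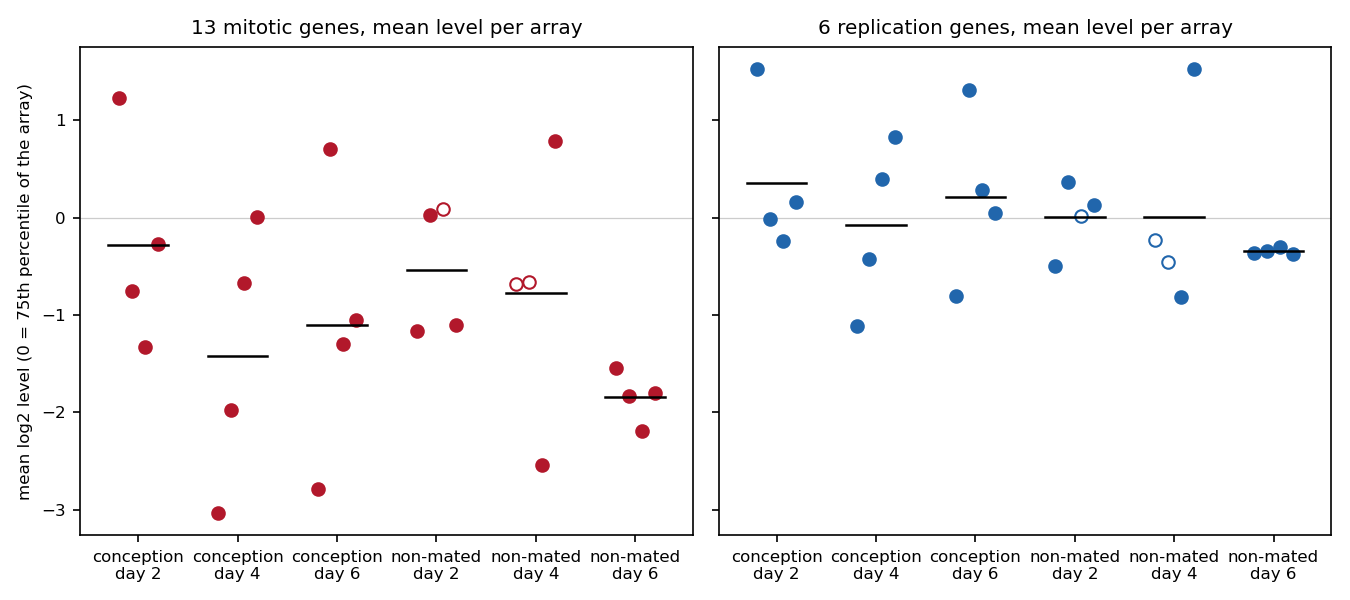
Mean log2 level of the 13 mitotic genes (left) and the 6 replication genes (right) on each array, with 0 at the 75th percentile of the array. Each point is an array, open points are the 3 weak arrays, and bars are group means over all 4 arrays. The mitotic means span 3.49 log2 units at conception day 6 and 0.65 at non-mated day 6.

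TOP2A, the topoisomerase that untangles the copied chromosomes, shows this spread. In conception cycles its level was 3.38, 0.76, 0.80 and 1.96 on day 2, -1.95, -0.29, 1.85 and 2.46 on day 4, and -1.84, 2.92, 0.69 and 1.68 on day 6. At non-mated day 6 it was 0.04, -0.31, -0.52 and 0.39, so these 4 arrays lay inside the range of conception days 4 and 6 and below every array of conception day 2. MCM3, a helicase subunit, had 2.1, -0.08, -0.32 and 0.21 on day 2, -1.55, -0.42, 0.98 and 1.46 on day 4, and -1.24, 2.17, 0.78 and 0.70 on day 6. The highest array of each of these groups was the same for MCM3 and TOP2A. PCNA, the sliding clamp, had 2.94, 1.23, 0.62 and 1.40 on day 2 and 0.77, 2.34, 1.18 and 1.30 on day 6. It was highest on the same arrays as TOP2A, over a smaller range.

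The standard deviation within groups, over the 21 arrays that were not weak, had a median of 1.34 log2 units among the 13 mitotic genes, 0.83 among the 6 replication genes and 0.76 among the 6 regulators of G1 and S phase. The median of all 12229 features was 0.52. KIF2C, a kinesin that depolymerises microtubules at kinetochores, and TOP2A were the most variable at 1.71 and 1.69, above 98.9% and 98.8% of features. BUB3, a checkpoint protein at the kinetochore, was the exception among mitotic genes at 0.37. Among replication genes MCM3 and MCM5 stood at 1.25 each, MCM7 at 0.80 and PCNA at 0.77, while RFC5, a clamp loader subunit, was lowest at 0.57. CDK4, the partner of cyclin D, varied least of the 26 at 0.32.

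The genes also moved together. As a description with no test, deviations from the group means over the same 21 arrays correlated between mitotic genes at a median r of 0.88 over 78 pairs, from 0.36 to 0.98. Within the MCM genes and PCNA the median was 0.91 over 6 pairs, and between these and the mitotic genes it was 0.90 over 52 pairs. For all pairs of features the median was -0.001, and the arrays shared by all pairs also share their RNA quality and depth. Between the clamp loader subunits and the mitotic genes the median was 0.42 over 26 pairs, but the subunits differed: with the mean of the mitotic genes RFC3 correlated at 0.79 and RFC5 at 0.24. Per log2 unit of the mean of the other mitotic genes, KIF2C moved by 1.42, TOP2A by 1.39 and CDC25C by 1.30, against 1.01 for MCM3, 0.97 for MCM5, 0.63 for MCM7 and 0.58 for PCNA. RFC3 moved by 0.56, close to MCM7 and PCNA, BUB3 by 0.21 and RFC5 by 0.11.

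The question of the time comparison was how these genes differ between day 6 and day 2 after ovulation. In conception cycles 12 of 13 mitotic genes and 5 of 6 replication genes had a lower mean at day 6, yet none of the 26 passed limma's test (adjusted p = 0.997 for each). The mitotic exception was BUB3, at 0.25, and another BUB3 probe that passed the filter had -0.18. The mitotic genes had a median log2 difference of -0.81 and the replication genes one of -0.17, beside -0.03 over all features, of which 52% were lower. NEK2, a kinase of centrosome separation, had -1.42 ± 0.91 (SE, 4 arrays a group), CCNB1, cyclin B1, -1.38 ± 0.91, KIF2C -1.22 ± 1.05, TPX2, a spindle assembly factor, -0.95 ± 0.86, and TOP2A -0.87 ± 1.02. Among replication genes the differences were -0.32 ± 0.42 for RFC5, -0.27 ± 0.81 for MCM5, -0.18 ± 0.56 for MCM7 and -0.15 ± 0.58 for PCNA. Each of these differences was within 2 standard errors of 0. NEK2 passed the filter only through the day 2 groups and was well above background on 2 of 4 conception arrays at day 6. GINS2, a subunit of the replicative helicase, had -0.80 ± 0.63 and E2F1 0.03 ± 0.78. CDK4 ran the other way at 0.70 ± 0.42, with 2.99, 2.44, 2.35 and 2.49 at day 2 and 2.96, 3.66, 3.24 and 3.22 at day 6.

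In this comparison 0.0164% of all features passed at an adjusted p of 0.05, and 0 of the 26 genes had an unadjusted p below 0.05, against 4.19% of all features. The weak arrays are in other groups but enter the estimate of the spread. Without them 206 of 12229 features passed and still 0 of the 26 genes. The difference of CDK4 then stood at 0.70 ± 0.25, more than 2 standard errors from 0. None of the 26 genes had day 6 arrays entirely below the day 2 arrays, which 2.42% of features had. The size rested on single arrays. The mean difference of the mitotic genes was -0.83, but -0.33 when conception day 2 replicate 1 was left out, -0.27 without the low array (conception day 6 replicate 1) and -1.43 without the high one (conception day 6 replicate 2). The mean difference of the replication genes, -0.15, became 0.24 without the first of these and 0.19 without the next, and it was -0.52 without conception day 6 replicate 2. It was also -0.27 and -0.35 when conception day 2 replicates 2 and 3 were left out, and -0.09 without replicate 4 of day 6. Slides 7 and 8 each carried an array of either day. The mitotic mean differed by 0.03 on the first and by -0.78 on the second, and with slide as a block the median difference was -0.45 for the mitotic and 0.23 for the replication genes. On scan day 1 the mitotic mean differed by -0.38 and on scan day 2 by -1.28.

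In non-mated cycles 12 of 13 mitotic genes and 4 of 6 replication genes had a lower mean at day 6 than at day 2, and again none of the 26 passed limma's test (adjusted p from 0.757 to 0.989). BUB3 was again the mitotic exception, at 0.06, and its other probe had -0.30. Without the weak day 2 array all 13 mitotic and all 6 replication genes were lower, with an adjusted p of 1.00 for each. The median log2 difference was -1.21 for the mitotic and -0.21 for the replication genes, beside -0.19 for all features, and without the weak arrays -1.16, -0.36 and 0.01. Under quantile normalization, which raised the median of all features to 0.48, 9 of 13 mitotic genes (median -0.76) and 2 of 6 replication genes (median 0.37) were lower. NEK2 had levels of -3.22, -2.02, -0.26 and -2.76 at day 2, the third on the weak array, and -3.81, -4.16, -4.78 and -4.37 at day 6. All day 6 arrays lay below all day 2 arrays, by -2.22 ± 0.91 on average and -1.62 ± 0.95 without the weak array. NEK2 was well above background on 3 of 4 arrays at day 2 and on 2 of 4 at day 6. It passed the filter only through the day 2 groups, so part of a lower day 6 level may be built in. CCNB1 had -3.59, -2.21, -0.26 and -3.06 at day 2 and -4.20, -3.63, -4.09 and -4.47 at day 6, again with no overlap, a difference of -1.81 ± 0.91, or -1.14 ± 0.94 without the weak array. For CDC25C, a phosphatase that activates CDK1, the difference was -1.97 ± 1.00, or -1.29 ± 1.09 without that array. For the probe named PTTG1 (securin), which may read a copy, the difference was -2.14 ± 0.98, or -1.17 ± 0.89 without that array. For TOP2A it was -0.98 ± 1.02 with and -1.25 ± 1.17 without that array. PTTG1 was well above background on 2 of 4 arrays at either day and passed the filter only through conception day 2. Another probe for PTTG1 had -1.03 with all arrays. E2F1 had -0.92 ± 0.78 and CDK4 0.64 ± 0.42, or -0.47 ± 0.81 and 0.09 ± 0.27 without the weak array.

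The replication genes were nearer to 0 on the arrays that were not weak, with -0.26 ± 0.88 for MCM3, -0.29 ± 0.57 for MCM7, -0.36 ± 0.55 for PCNA, -0.40 ± 0.87 for MCM5, -0.36 ± 0.42 for RFC5 and -0.42 ± 0.61 for RFC3. With all arrays RFC3 had -1.23 ± 0.72, since the weak array listed it at that array's lowest level. PCNA was 1.48, 1.59, -0.26 and 0.72 at day 2 and 0.86, 0.70, 0.72 and 1.34 at day 6, so the groups overlapped. The day 6 arrays lay entirely below the day 2 arrays for 6 of 13 mitotic genes, CCNB1, CDC25C, NEK2, KIF23, CENPF and TPX2, against 1.93% of all features, and for 0 of 6 replication genes. Without the weak array this held for 7 mitotic genes, TOP2A added, and for CDK2, against 2.74% of features. At non-mated day 6 NEK2 and CCNB1 were well above background on 2 of 4 arrays, and CDC25C, KIF23, CENPF and TPX2 on all 4. NEK2 and PTTG1 had an unadjusted p below 0.05, at 0.024 and 0.040, as did 3.3% of all features; the adjusted share was 0%. Without the weak array neither did. Leaving out any single array kept the mean difference of the mitotic genes between -1.52 and -1.10. That of the replication genes, -0.35 with all arrays, was -0.23 without non-mated day 2 replicate 2 and -0.52 without replicate 1. On slide 6, the only slide with a sound array of either day, the mitotic mean differed by -1.09 and the replication mean by -0.43. On scan day 2, with no weak array in these groups, they differed by -1.11 and -0.31.

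**Figure D3:**
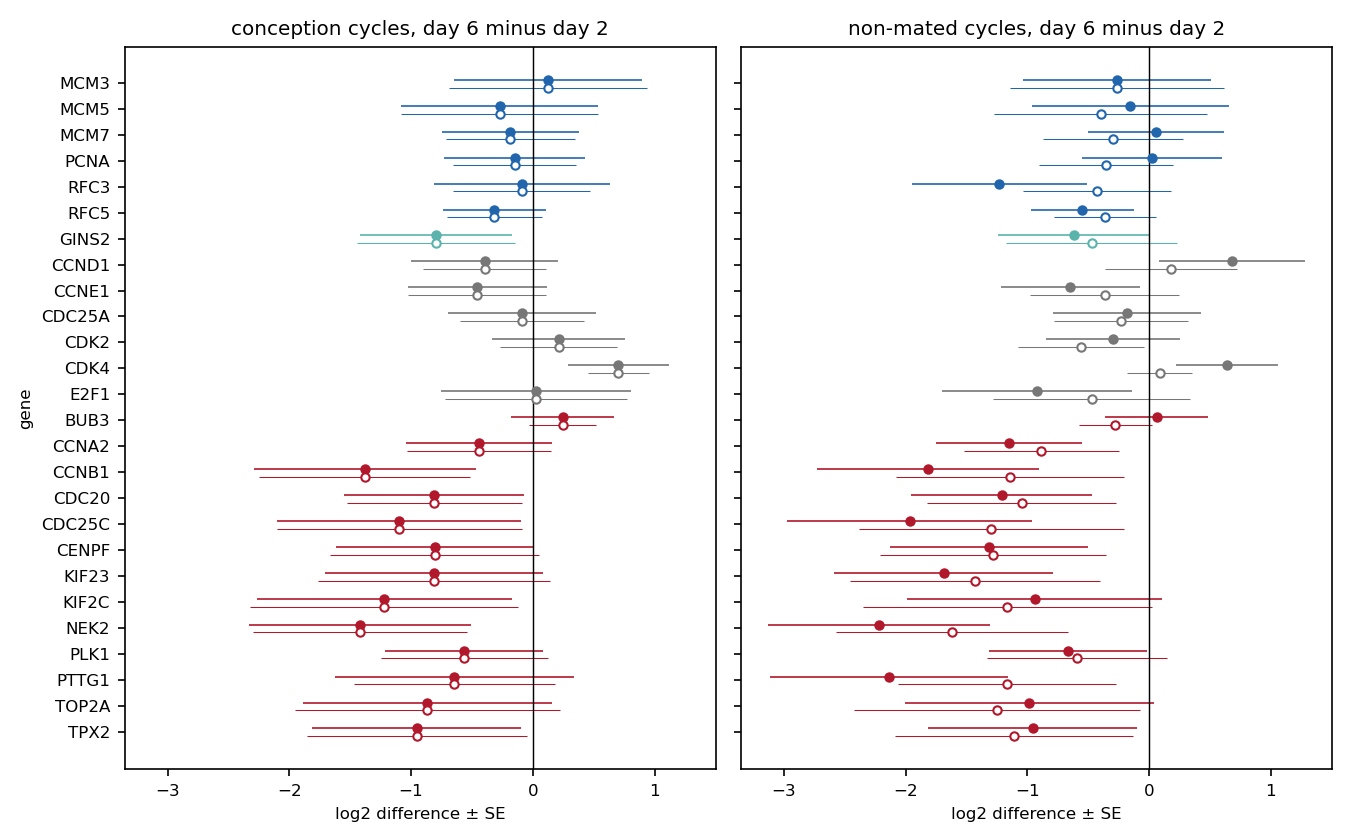
Log2 difference of day 6 minus day 2 for each of the 26 genes in conception cycles (left) and non-mated cycles (right), with bars of 1 standard error from limma. Filled points use all arrays and open points leave out the weak arrays; colours are those of the groups of genes (blue replication, green GINS2, grey regulators of G1 and S phase, red mitotic). Mitotic genes lie mostly to the left of 0 in both cycle types, with medians of -0.81 and -1.21, and the replication genes lie nearer to 0, RFC3 in non-mated cycles (-1.23, or -0.42 without the weak array) apart.

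Whether the day difference itself differed between cycle types was tested as an interaction, and none of the 26 genes passed (limma, adjusted p from 0.900 to 1.00). At an unadjusted p of 0.05 the count was 0 of 26, against 2.09% of features, and 0% of features passed after adjustment. The largest values were 1.49 ± 1.38 for PTTG1, 1.14 ± 1.02 for RFC3, -1.08 ± 0.85 for CCND1 and 0.94 ± 1.11 for E2F1. Without the weak arrays these were 0.52, 0.33, -0.58 and 0.50. The PTTG1 probe used may read a copy, and it was well above background on 12 of 24 arrays. Another probe for PTTG1 had day differences of -1.21 in conception and -1.03 in non-mated cycles, so its interaction had the other sign. CCNA2, KIF23 and NEK2 had 0.71 ± 0.85, 0.87 ± 1.27 and 0.80 ± 1.29, and MCM3, MCM7 and RFC5 had 0.39 ± 1.09, -0.24 ± 0.79 and 0.23 ± 0.60. TOP2A, PCNA and CCNE1 had 0.12 ± 1.44, -0.18 ± 0.82 and 0.19 ± 0.81.

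The next question was how conception cycles differed from non-mated cycles on the same day. At day 2, 20 of the 26 genes had a higher mean in conception cycles, and 0 passed limma's test (adjusted p from 0.790 to 0.996). The median difference was 0.23 for the mitotic and 0.65 for the replication genes, beside -0.15 for all features, and without the weak array 0.48, 0.35 and 0.02. PCNA had 0.67 ± 0.58, MCM7 0.64 ± 0.56, MCM5 0.75 ± 0.81 and MCM3 0.67 ± 0.77, and TPX2, TOP2A, KIF2C and BUB3 had 0.81 ± 0.86, 0.84 ± 1.02, 0.81 ± 1.05 and 0.23 ± 0.42. When the weak array was left out the 4 replication genes had 0.28, 0.29, 0.51 and 0.67, and the 4 mitotic genes 0.65, 0.58, 0.58 and -0.11. The difference was largest for CCND1, cyclin D1, at 1.01 ± 0.60, with 3.59, 3.97, 3.67 and 3.17 in conception cycles and 2.18, 3.74, 1.10 and 3.35 in non-mated cycles. The groups overlapped, and the difference was 0.51 ± 0.54 without the weak array. CDK4, CCNE1 and E2F1 had 0.57 ± 0.42, 0.38 ± 0.57 and 0.17 ± 0.78, and CDK4 had 0.02 ± 0.27 without the weak array. No gene had conception arrays entirely above the non-mated arrays, which 0.564% of features had. Unadjusted p fell below 0.05 for 0 of 26 genes, against 2.55% of features, and 0% of features passed after adjustment. The mitotic mean difference, 0.26, became -0.25 when conception day 2 replicate 1 was left out. It was 0.41 and 0.60 without replicates 2 and 3 of the conception group, and 0.05, 0.44, 0.46 and 0.07 without non-mated day 2 replicates 1, 2, 3 and 4. The mean difference of the replication genes, 0.35, was -0.04 without the first of these arrays, 0.55 without the third conception replicate and 0.19 without non-mated day 2 replicate 1. The mitotic mean difference was 0.21 on slide 4, -0.29 on scan day 1 and 0.81 on scan day 2, and with slide as a block the median of the mitotic genes was -0.63. The non-mated arrays of scan day 1 included the weak one, with a mitotic mean of 0.09. The sound non-mated array of scan day 1 had -1.10, and the conception arrays had -1.32 and -0.27. The negative sign on scan day 1 therefore rests on the weak array.

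At day 4 the mitotic genes were mostly lower in conception cycles and the replication genes were not. Of the 13 mitotic genes 12 had a lower mean, with a median of -0.70, against 2 of 6 replication genes with a median of 0.08, and all features had a median of -0.01. The mean of the replication genes had the other sign, -0.08, and under quantile normalization 6 of 13 mitotic and 0 of 6 replication genes were lower, with medians of 0.25 and 0.32 beside 0.40 for all features. Without the weak arrays, which leaves 2 non-mated arrays at levels far apart, all 13 and all 6 were lower, with medians of -0.48 and -0.38. None of the 26 passed limma's test (adjusted p from 0.704 to 0.984), and 0% of features did. At an unadjusted p of 0.05 the count was 0 of 26, against 5.9% of features. CDC20, the activator of the ubiquitin ligase that ends mitosis, had -1.27 ± 0.74, PTTG1 -1.21 ± 0.98, NEK2 -1.07 ± 0.91 and CCNB1 -0.90 ± 0.91. On the sound arrays these became -0.48 ± 0.88, -0.46 ± 1.01, -0.76 ± 1.08 and -0.73 ± 1.06. Among the others RFC5 had -0.59 ± 0.42, RFC3 -0.60 ± 0.72, PCNA 0.33 ± 0.58, MCM5 0.18 ± 0.81, CDK2 -0.76 ± 0.55 and E2F1 -0.93 ± 0.78. On the sound arrays RFC5 had -1.0 ± 0.48, RFC3 -0.45 ± 0.69, PCNA -0.03 ± 0.62, MCM5 -0.61 ± 0.99, CDK2 0.02 ± 0.59 and E2F1 -0.62 ± 0.91, so PCNA and MCM5 changed sign. TOP2A, CCND1 and CCNE1 had -0.44 ± 1.02, 0.14 ± 0.60 and -0.30 ± 0.57, or -0.35, -0.61 and -0.54 on the sound arrays. The other PTTG1 probe had -0.10 with all arrays. No gene had conception arrays entirely below the non-mated arrays, as 1.32% of features had. On the sound arrays RFC5 alone did, against 6.84% of features. The mitotic mean difference, -0.65, ranged widely with single arrays left out. It was -0.11 and -1.12 when conception day 4 replicates 1 and 4 were left out, and -1.24 and -0.12 when non-mated day 4 replicates 3 and 4 were. The mean of the replication genes ran from -0.39, without conception day 4 replicate 4, to 0.42, without non-mated day 4 replicate 4. On scan day 1, whose arrays of these groups were all sound, the mitotic mean differed by 0.55. Conception and non-mated arrays of that scan day were on different slides. On scan day 2, whose non-mated arrays were both weak, the mitotic mean differed by -1.84.

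At day 6, 25 of the 26 genes had in conception cycles a higher mean than in non-mated cycles, with medians of 0.70 for the 13 mitotic and 0.56 for the 6 replication genes, beside 0.00 for all features, of which 50.1% were lower. None passed limma's test (adjusted p = 1.00 for each), and 0.00818% of features did. PTTG1 had 1.35 ± 0.98, E2F1 1.11 ± 0.78, MCM3 1.06 ± 0.77, KIF23, a kinesin of cytokinesis, 1.03 ± 0.90, TOP2A 0.96 ± 1.02, CENPF, a kinetochore protein, 0.85 ± 0.81, RFC3 0.75 ± 0.72, CCNA2, cyclin A2, 0.70 ± 0.60, MCM5 0.63 ± 0.81 and PCNA 0.49 ± 0.58. CDK4 had 0.63 ± 0.42, CCNE1 0.57 ± 0.57 and CCND1 -0.07 ± 0.60. The PTTG1 probe used may read a copy, and the other PTTG1 probe had 0.51. MCM3 was -1.24, 2.17, 0.78 and 0.70 in conception cycles and -0.59, -0.55, -0.52 and -0.18 in non-mated cycles. Thus 3 of 4 conception arrays lay above, and 1 below, all non-mated arrays. TOP2A showed the same arrangement. Conception arrays lay entirely above non-mated arrays for CDK4 (2.96, 3.66, 3.24 and 3.22 against 2.57, 2.81, 2.55 and 2.61) and RFC3, that is for 2 of 26 genes, against 2.57% of features. RFC3 was well above background on 4 of 4 conception but only 2 of 4 non-mated day 6 arrays. The unadjusted p was below 0.05 for 0 of 26 genes, against 2.46% of features; without the weak arrays, which are in other groups but enter the estimate of the spread, CDK4 had a p of 0.020 and an adjusted p of 0.470.

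Conception day 6 replicate 2 carried most of this difference. Without it the mitotic mean difference was 0.13 instead of 0.73, and the replication mean difference 0.19 instead of 0.56, with 4 of 13 mitotic genes then lower. Without conception day 6 replicate 1 the differences were 1.29 and 0.90. On slide 1, which held arrays of both groups, they were 0.50 and 0.62, on scan day 1 they were 0.84 and 0.49, and on scan day 2 they were 0.63 and 0.62. With slide as a block the median was 0.17 for the mitotic and 0.51 for the replication genes, and 5 genes lay below 0: TOP2A (-0.03), CCNB1 (-0.07), KIF2C (-0.19), TPX2 (-0.06) and CCND1 (-0.20). Natural killer cell markers were also higher in conception cycles at day 6. All 5 tested of 6 listed, NCAM1, GNLY, NKG7, PRF1 and GZMB, had a higher mean (median log2 difference 0.67), and their mean level ranged over 0.74 to 1.16 on conception and -0.09 to 1.35 on non-mated arrays. Their part in this difference was not tested.

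**Figure D4:**
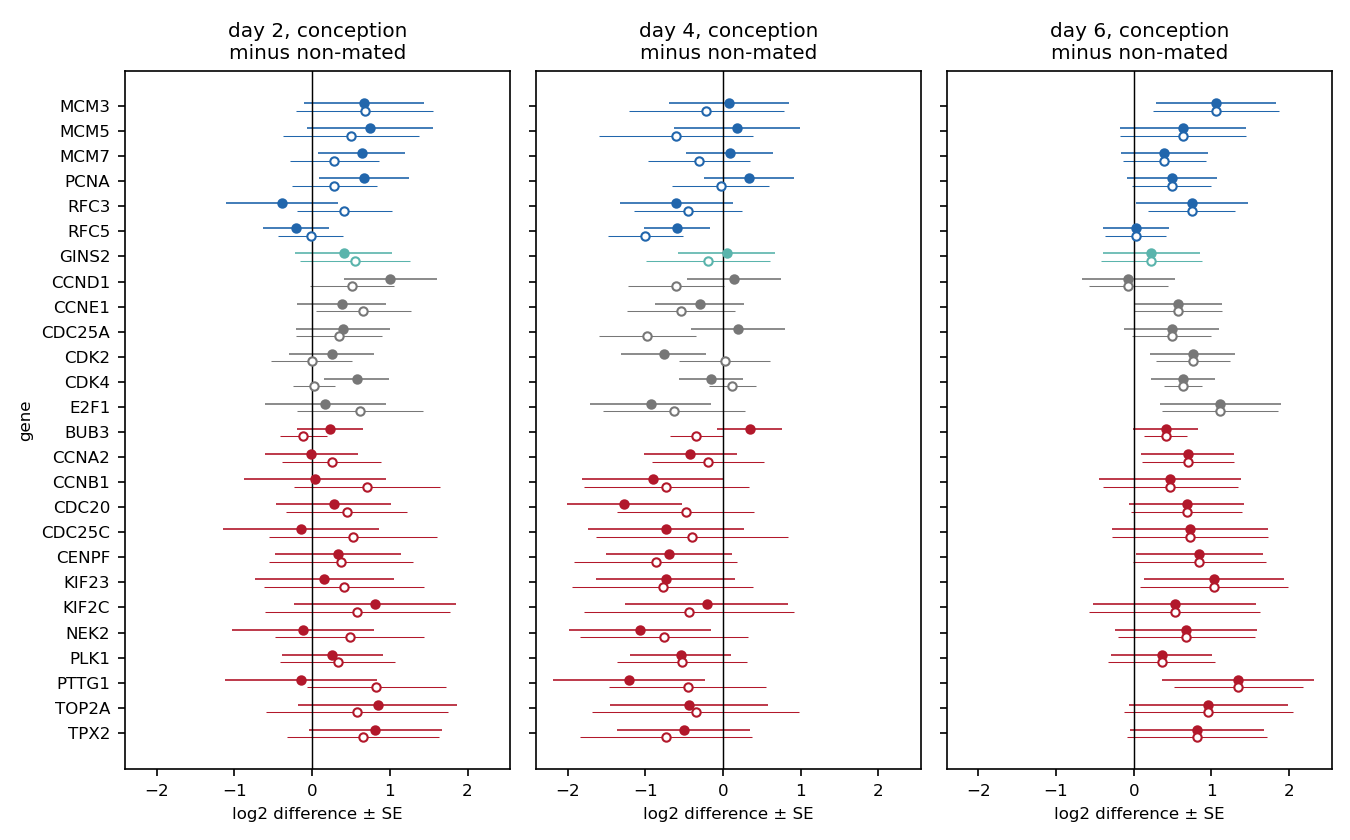
Log2 difference of conception minus non-mated cycles for each of the 26 genes at days 2, 4 and 6, with bars of 1 standard error from limma; filled points use all arrays, open points leave out the weak arrays, and colours mark the groups of genes (blue replication, green GINS2, grey regulators of G1 and S phase, red mitotic). At day 6, 25 of 26 points lie to the right of 0.

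The replication genes were then set against the mitotic genes on the same array, as the mean level of the first minus that of the second. Only differences of this value between arrays can be read, since its zero depends on the probes. In conception cycles it was 0.29, 0.74, 1.08 and 0.43 on day 2, 1.92, 1.55, 1.06 and 0.82 on day 4, and 1.98, 0.61, 1.58 and 1.10 on day 6. In non-mated cycles it was 0.67, 0.34, -0.08 and 1.23 at day 2, with the third value from the weak array, and 1.18, 1.48, 1.88 and 1.43 at day 6. At day 4 the sound non-mated arrays had 1.73 and 0.73. From day 2 to day 6 the value was higher by 0.68 in conception cycles and by 0.95 in non-mated cycles, or 0.75 without the weak array. The mean of the mitotic genes was thus lower at day 6 by more than that of the replication genes in both. That mitotic mean includes NEK2 and PTTG1, which passed the filter only through day 2 groups, as no replication gene did. Part of the higher value at day 6 may therefore be built in. The value was higher by 0.50 on slide 7, 0.67 on slide 8 and 0.66 on slide 6, which are the slides with a sound array of either day. The groups overlapped in each case, and the value has no test, because it is a score over genes chosen with earlier results known. Conception minus non-mated, it was 0.10 at day 2, 0.56 at day 4 and -0.18 at day 6. Without the weak arrays the first became -0.11 and the second 0.11. Of the 13 mitotic genes 8, 13, 13 and 11 were well above background on the conception day 6 arrays. On the non-mated day 6 arrays 10, 13, 13 and 10 were. All 6 replication genes were on the former arrays, and 5, 6, 6 and 5 on the latter. The sound day 2 arrays had 12 or 13 mitotic genes and all 6 replication genes above it. NEK2 and PTTG1 sat at the lowest level, -5.57, of conception day 6 replicate 1. The part of background in the day comparison was not tested.

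**Figure D5:**
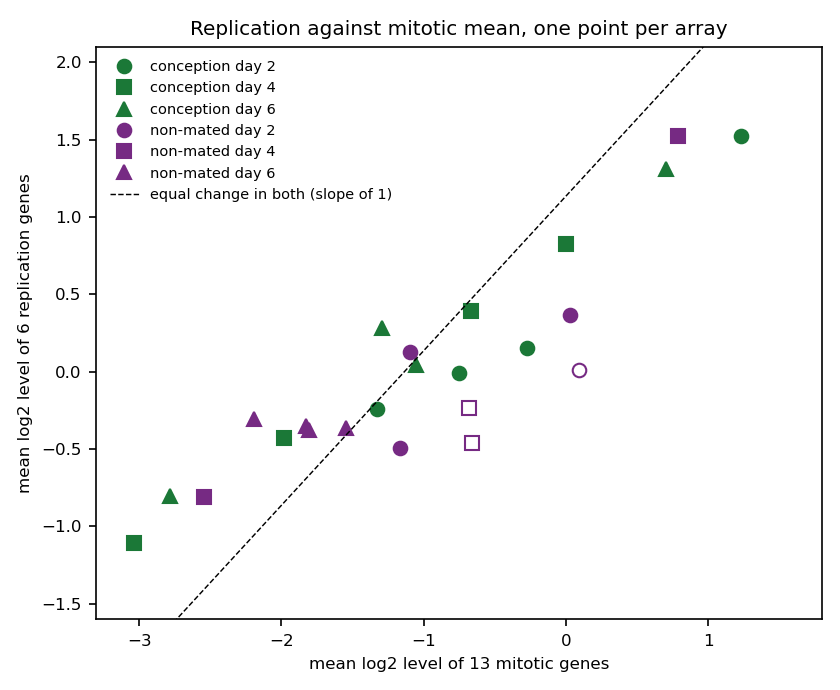
Mean log2 level of the 6 replication genes against that of the 13 mitotic genes, with 1 point per array (green conception, purple non-mated; circles day 2, squares day 4, triangles day 6; open symbols are weak arrays). The dashed line has a slope of 1 through the mean of the arrays that are not weak, and the points rise less steeply than it, from -1.11 to 1.52 in replication over a mitotic mean of -3.03 to 1.23.

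The value was low on the arrays with the highest levels of division genes and high on those with the lowest, which came from different days. The 3 arrays with the highest mitotic means, conception day 2 replicate 1, non-mated day 4 replicate 4 and conception day 6 replicate 2, had 0.29, 0.73 and 0.61. The 3 with the lowest, conception day 4 replicate 1, conception day 6 replicate 1 and non-mated day 4 replicate 3, had 1.92, 1.98 and 1.73. The mitotic mean enters both numbers, so part of this relation is built in. In whole tissue, fewer dividing cells and less of these transcripts per cell cannot be told apart.

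The regulators of G1 and S phase followed the mitotic genes to different degrees. E2F1, which switches on replication genes, followed them, with 0.82, -1.64, -2.06 and -1.37 on day 2 of conception cycles, -2.67, -1.91, -1.49 and -0.96 on day 4 and -2.42, 0.14, -1.11 and -0.76 on day 6. Cyclin E1, CCNE1, had 0.50, -1.57, -1.52 and -0.34 on day 2 and -2.18, -0.20, -1.33 and -1.04 on day 6, and its day 6 minus day 2 difference was -0.46 ± 0.57 in conception and -0.65 ± 0.57 in non-mated cycles. E2F1 and CCNE1 correlated with the mean of the mitotic genes at 0.92 and 0.95 over the 21 arrays, CCND1 at 0.79, CDK4 at 0.77, CDC25A at 0.73 and CDK2 at 0.41. CCND1, which responds to growth signals ahead of S phase, differed by -0.40 ± 0.60 between days 6 and 2 in conception cycles and by 0.68 ± 0.60 in non-mated cycles, or 0.18 ± 0.54 without the weak array.

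The 5 genes that were found but did not pass the filter give no evidence of change in either direction. MKI67, the usual histological marker of division, was well above background on 1 of 24 arrays and MCM6 on 0, so their probes give only a bound near the background. CDC6, which loads the helicase, was above it on 1, and CDC45, a helicase subunit, and RFC2 on 5 each. CDC45 had its highest levels on sound arrays, -2.53 and -2.59, on conception day 6 replicate 2 and conception day 2 replicate 1.

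Of the 29 symbols that the gene name did not match, 18 could be found through a gene ID or description, and all 18 passed the filter. They lie outside the rule and are given as a separate description. The 13 mitotic genes among them had medians of -0.97 in conception and -1.26 in non-mated cycles for day 6 minus day 2, with 12 of 13 lower in each, and 0.80 for conception minus non-mated at day 6, with 12 of 13 higher. CDK1, the kinase that starts mitosis, had 0.04, -1.20, -1.77 and -1.41 on conception day 2 and -3.95, -0.47, -2.11 and -1.39 on conception day 6, a difference of -0.89 ± 0.72. The day difference was -1.34 ± 0.72 in non-mated cycles, or -0.90 ± 0.77 without the weak array, and the interaction 0.45 ± 1.01. Conception minus non-mated, CDK1 had -0.01, -0.58 and 0.44 on days 2, 4 and 6. FOXM1, a transcription factor of mitotic genes, differed by -1.89 ± 0.99 in conception cycles and by -1.92 ± 0.99 in non-mated cycles, the latter -1.41 without the weak array. MCM2 differed by -0.13 ± 0.69 and -1.07 ± 0.69, the latter -0.46 ± 0.68 without the weak array, with an interaction of 0.94 ± 0.97 and with -0.29, -0.15 and 0.65 for conception minus non-mated on days 2, 4 and 6. RRM1, the large subunit of ribonucleotide reductase, which makes deoxynucleotides, differed by -0.43 ± 0.52 and -0.12 ± 0.52. CDC25B, a phosphatase of cyclin-dependent kinases, correlated with the mitotic mean at -0.26, and was lowest, at -0.97, on conception day 4 replicate 3. RRM2, the small subunit of ribonucleotide reductase, was among the 11 symbols not found. None of the 18 passed limma's test in any comparison, and 2, BUB1 and NUSAP1, had an unadjusted p below 0.05, both in the non-mated comparison of days, where 3.3% of all features did. On the sound arrays their p-values in limma were 0.134 and 0.132. NUSAP1 passed the filter only through the day 2 groups. The other PTTG1 probe differed by -1.21 and -1.03 between days 6 and 2 in conception and non-mated cycles, against -0.64 and -2.14 for the probe used. Its levels at conception day 6, -1.75, 1.90, -0.79 and -0.15, were high on the same array as TOP2A.

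Other genes of the pathway, from lists that exclude the 60 symbols, were counted in the same fit, and 0 of them passed limma's test in any comparison. At an unadjusted p of 0.05 the counts were 5 of 33 further mitosis genes in the non-mated and 1 in the conception comparison of days, and 1 gene of each other list at day 4. The shares of all features were 3.3%, 4.19% and 5.9%. Of the 33 mitosis genes, 29 were lower at day 6 than day 2 in conception cycles (median -0.63) and 31 in non-mated cycles (median -1.33, or -0.97 without the weak array). ASPM, a spindle pole protein, had -2.60 ± 0.98 in non-mated cycles, and SMC2, KIF18A and KNTC1 had -1.66 ± 0.70, -2.16 ± 0.95 and -2.45 ± 1.08. Their unadjusted p-values were 0.014 to 0.033 and their adjusted p in limma 0.757 each. Without the weak array the unadjusted p-values were 0.078 to 0.191. Of 21 further replication and S phase genes, 15 and 14 were lower, with medians of -0.26 and -0.22, the latter -0.11 without the weak array. POLA2, a subunit of DNA polymerase alpha, had -1.07 ± 0.54 in conception cycles, and CHEK1, a checkpoint kinase, -1.07 ± 0.55 in non-mated cycles. For conception minus non-mated, TK1, thymidine kinase, had 1.24 ± 0.72 at day 2. RPA1, which coats single-stranded DNA, had 0.81 ± 0.33 for conception minus non-mated at day 4. CHEK1, TK1 and RPA1 had -0.57, 0.82 and 0.26 without the weak arrays. Of 23 genes of the RB and DREAM repressor complexes and cell cycle inhibitors, 12 and 15 were lower at day 6, with medians of -0.10 and -0.44, the latter -0.11 without the weak array. Here BTG1 had 0.97 ± 0.43 at day 4, RB1 -0.96 ± 0.48 and E2F8 -2.31 ± 1.16 for day 6 minus day 2 in non-mated cycles, and RBL2 -1.02 ± 0.56 at day 2. The 4 values were 0.87, -0.36, -1.39 and -0.44 without the weak arrays. RB1 and RBL2 encode the repressors that hold E2F genes silent.

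Markers of other cells varied between the same arrays. The mean of the 6 stromal markers was 2.33, 2.91 and 1.73 on the 3 arrays with the highest mitotic means and 1.23, 1.68 and 0.82 on the 3 with the lowest. On sound arrays it ranged over 1.03 to 2.33, 1.23 to 2.14 and 0.86 to 2.91 at conception days 2, 4 and 6, and 1.22 to 2.37, 0.82 to 1.73 and 0.99 to 2.17 at non-mated days 2, 4 and 6. PAX8 and CLDN3, the epithelial markers, had means of 2.94, 3.08 and 3.51 on the first arrays and 3.63, 3.27 and 3.47 on the others. Their range on sound arrays was 2.94 to 3.76, 2.40 to 3.63 and 3.08 to 3.80 in conception and 2.70 to 3.45, 3.47 to 3.51 and 2.95 to 3.73 in non-mated cycles. The 3 smooth muscle markers tested of 7 listed, MYH11, DES and ACTG2, stood out on conception day 2 replicate 2, at 5.86 against 0.06 to 2.92 on the other sound arrays. Natural killer cell markers averaged 0.47, 1.16 and -0.41 on the 3 arrays with the highest mitotic means and 0.79, 0.74 and -0.38 on the 3 with the lowest. On sound arrays they ranged over -0.27 to 0.47 and -0.62 to 0.80 at conception days 2 and 4, -0.74 to -0.18 at non-mated day 2 and -0.41 to -0.38 at non-mated day 4. In conception cycles all 5 were higher at day 6 than at day 2, with a median of 1.12. The part of these cells in the levels of the division genes was not tested.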

How the data were processed

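Endometrial RNA was labelled with Cy3 and hybridised to Agilent one-colour arrays, per the labels' protocols. The authors deposited scanner files with a background-corrected intensity per spot, made with Agilent Feature Extraction, version 9.5.3.1 per the file headers and 10.7.3.1 per the submitters' processing notes, and a value table on the log2 scale, used as an alternative, whose centring stays unknown. Positions are those of rheMac2 in the files.

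Titles of 8 non-mated samples name another day than their other labels, which were used. Control and outlier spots were dropped and the 2 spots of each of 20217 probes averaged. The level was log2 signal minus the 75th percentile of the array. Kept were 12780 probes that 3 or more arrays of some group showed well above background, and the probe with the highest mean stood for a gene. All 24 arrays were fitted with 6 group means in limma 3.58.1 (R 4.3.3; 18 residual degrees of freedom), with two-sided tests and Benjamini-Hochberg adjustment over 12229 features at 0.05. The fit was tested on simulated data. Precision is limited by the 4 arrays a group.

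The members and lists were chosen with earlier results of these data known. Genes are named by a rule: where fewer than 4 members passed, the 4 replication, 4 mitotic and 2 other members with the smallest p, given as values, in all comparisons TOP2A, PCNA, CCND1, CCNE1, E2F1, MKI67, CDK1, MCM2 and MCM6 where measured, and at most 4 per further list. MKI67 and MCM6 did not pass the filter. FOXM1, CDC25B and the genes named for their spread or lack of overlap were chosen after their values were seen. Replicate numbers were not used to pair arrays. Over 60 same-number pairs the correlation of deviations from group means ran from -0.68 to 0.64, with a median of 0.018. In the conception groups, however, arrays numbered 3 were all on slide 7 and those numbered 4 all on slide 8. Promoter motifs were not analysed here. Alternatives covered the background correction, normalization, filter, probe choice, gene naming, weak arrays, slide, scan day, replicate number and each array left out. Python 3.11.15 was used for tables and plots.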

Additional observations from a re-analysis of the deposited data

Results flagged for a closer look

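Levels of 13 of the genes, the mitotic and replication means and their difference were screened in each group for an array set apart from the other 3, in 96 groups of values, of which chance alone would flag about 1 in 20. A single value stood out. CCND1, cyclin D1, had a level of 3.88 on non-mated day 6 replicate 4 against 3.00 to 3.12 on the other 3 arrays, a gap of 0.87 of the range. The mitotic mean of that array, -1.80, lay among those of its group. No interaction of cycle type and day passed for any of the genes.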

How the results depend on the processing

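The count of genes called was 0 of 26 in each of the 6 comparisons under all 35 alternatives, and the smallest adjusted p that any of them gave was 0.180, for CDK4 in conception day 6 against day 2 without the weak arrays, where 206 of all features were called. The number with an unadjusted p below 0.05 ran from 0 to 6 in the non-mated comparison of days and from 0 to 3 in the others. Many of the 37 alternatives could not change replication minus mitotic. Those that left out an array outside the groups compared, or added the replicate block, keep its difference of means. For day 6 minus day 2 it stayed above 0 under all 37, from 0.44 to 0.92 in conception cycles. In non-mated cycles it ran from 0.52 to 1.18, and the lowest value of either cycle type came with normexp background correction. Conception minus non-mated, it ran from -0.11 to 0.55 at day 2, below 0 without the weak arrays, without non-mated day 2 replicate 3 alone and, at -0.05, without conception day 2 replicate 3, 0.11 to 0.93 at day 4 and -0.40 to 0.28 at day 6, above 0 with slide as a fixed block and without conception day 6 replicate 2. The interaction ran from -0.50 to -0.04. Leaving out PLK1 and PTTG1, chosen after seeing the data, gave 0.72 and 0.94 for the comparisons of days. With the replicate number as a block the values had to stay the same, 0.68 and 0.95, since each group holds every number once, and 0 genes were called. No label ties the numbers to animals. Quantile normalization moved the median of all features from -0.19 to 0.48 in non-mated day 6 minus day 2. Of 1836 values of single genes under alternatives, 1815 moved by less than 1 standard error. Many of them could not move, because leaving out an array outside the groups compared, or adding the replicate block, keeps the difference of means. The count is therefore no measure of robustness. Signal over background limits MKI67 and MCM6 throughout.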
